A study of Mus musculus with 32 samples.

Results

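Sphingosine-1-phosphate (S1P) is a signalling lipid, and 9 genes that carry its receptors and its metabolism were followed in mouse brain arteries out of the 55357 genes of the count table. They were chosen by name: the receptors *S1pr1*, *S1pr2*, *S1pr3*, *S1pr4*, and *S1pr5*, the kinases *Sphk1* and *Sphk2*, the lyase *Sgpl1*, and the exporter *Spns2*. S1P is made from sphingosine by the kinases, leaves endothelial and other cells through transporters such as *Spns2*, and is broken down irreversibly by the lyase. Its receptors are G protein–coupled. In blood vessels *S1pr1* is best known from endothelium, where it strengthens the barrier, *S1pr2* and *S1pr3* are known from vascular smooth muscle and couple to contraction, *S1pr4* is known from blood cells, and *S1pr5* is known from oligodendrocytes and natural killer cells.

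Arteries dissected from the brain were sequenced for 32 mice, 1 library per mouse and 8 mice per group. The 3-month-old mice were *Notch3-/-* and *Notch3+/+*, and the 12-month-old mice carried the Tg*Notch3R169C* transgene or were non-Tg. The transgene expresses rat *Notch3* with a mutation that models CADASIL, an inherited disease of small brain arteries, and it does so on top of the intact mouse gene. All lines were on a C57BL/6 background, no mouse was treated, and the sex of each mouse is not in the labels used here. Libraries held from 20.3 M to 54.5 M counts (M, mega).

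*Notch3* itself was measured first as a check of the labels. It fell from 83.5 ± 11.7 CPM (counts scaled to library totals adjusted by TMM normalization factors) in *Notch3+/+* to 16.3 ± 1.82 CPM in *Notch3-/-* arteries (SD, n = 8 each). In Tg*Notch3R169C* arteries it was 181.2 ± 35.0 CPM, against 73.0 ± 8.16 CPM in non-Tg arteries. The groups did not overlap in either comparison. Markers of smooth muscle, endothelium, fibroblasts, and pericytes were present in every group, and so were markers of astrocytes, oligodendrocytes, neurons, and macrophages. Lymphoid and natural killer cell markers summed to 18.7 CPM at most. Markers of choroid plexus split the libraries: 1 *Notch3-/-* library, 4 non-Tg libraries, and 2 Tg*Notch3R169C* libraries held at least 13153 CPM over 8 such genes, and all others held at most 1035 CPM.

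The sequences around the start of *S1pr3* (ENSMUSG00000067586), *S1pr5* (ENSMUSG00000045087), and *Spns2* (ENSMUSG00000040447) are shown because these genes gave the largest differences described below. Each runs from 250 bases before the start to 50 bases after it and is taken from RefSeq (GRCm38.p6, a different build from the mm39 of the counts). They lie at chr13:51408368-51408667 (plus strand), chr9:21248394-21248693 (minus strand), and chr11:72474978-72475277 (minus strand), respectively, and capitals mark TGGGAA, the core recognised by RBPJ, the DNA-binding partner of Notch, or its reverse complement TTCCCA.
S1pr3: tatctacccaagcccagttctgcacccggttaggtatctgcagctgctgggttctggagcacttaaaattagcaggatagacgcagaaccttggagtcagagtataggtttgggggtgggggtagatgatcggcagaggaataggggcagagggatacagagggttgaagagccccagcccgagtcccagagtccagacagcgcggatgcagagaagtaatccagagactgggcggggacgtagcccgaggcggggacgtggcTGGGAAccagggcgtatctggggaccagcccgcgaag
S1pr5: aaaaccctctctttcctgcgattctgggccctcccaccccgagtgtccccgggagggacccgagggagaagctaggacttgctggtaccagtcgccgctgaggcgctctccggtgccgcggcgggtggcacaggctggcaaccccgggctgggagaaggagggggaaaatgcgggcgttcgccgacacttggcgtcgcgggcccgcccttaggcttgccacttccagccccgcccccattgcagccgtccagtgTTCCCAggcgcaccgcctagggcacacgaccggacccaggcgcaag
Spns2: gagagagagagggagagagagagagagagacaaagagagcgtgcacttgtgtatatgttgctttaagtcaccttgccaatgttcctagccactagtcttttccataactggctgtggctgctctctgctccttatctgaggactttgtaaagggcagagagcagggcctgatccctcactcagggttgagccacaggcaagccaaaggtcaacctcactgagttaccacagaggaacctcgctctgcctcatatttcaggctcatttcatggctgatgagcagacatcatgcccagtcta

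*S1pr3* held 1 match, from base +14 to base +19 counted from the start, and *S1pr5* held 1 match beginning at base +5, on the opposite strand. The *Spns2* sequence held none. Searched on both strands, the same 6 letters occurred in 8397 of 32851 promoters of this length (25.6%), and in 3 of the 13 promoters that RefSeq lists for 8 of the 9 genes. The CArG box, the motif of serum response factor in smooth muscle genes, occurred in 1.63% of all promoters and in 0 of these 13. A match of letters is a description of the sequence and not evidence of binding.

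Levels of the 9 genes spanned a wide range. Per kilobase of exon, *S1pr1* and *Sphk1* were highest in every group, at 51.9 ± 8.03 and 41.5 ± 5.91 CPM per kb in *Notch3+/+* arteries, and the ranges of these neighbours overlapped in all 4 groups. *Sgpl1* followed, at 15.2 to 17.5 CPM per kb in *Notch3+/+* mice, apart from the genes above and below it in every group. *Sphk2* (9.61 ± 1.02 CPM per kb) and *S1pr3* (8.62 ± 1.71 CPM per kb) came next and overlapped in *Notch3+/+* but not in *Notch3-/-* arteries. *Spns2*, *S1pr4*, and *S1pr2* were lower, at 3.98 ± 0.625, 3.14 ± 0.538, and 2.72 ± 0.404 CPM per kb, and *S1pr5* was lowest at 0.709 ± 0.344 CPM per kb. *S1pr1* therefore made up most of the summed receptor level, 77.0% ± 4.67 in *Notch3+/+* arteries. Dividing by the longest transcript in place of all exons placed *Spns2* above *S1pr3* in 3 groups, *S1pr2* above *S1pr4* in 3 groups, and *Sphk1* above *S1pr1* in non-Tg arteries, so these neighbours have no fixed order.

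**Figure D1:**
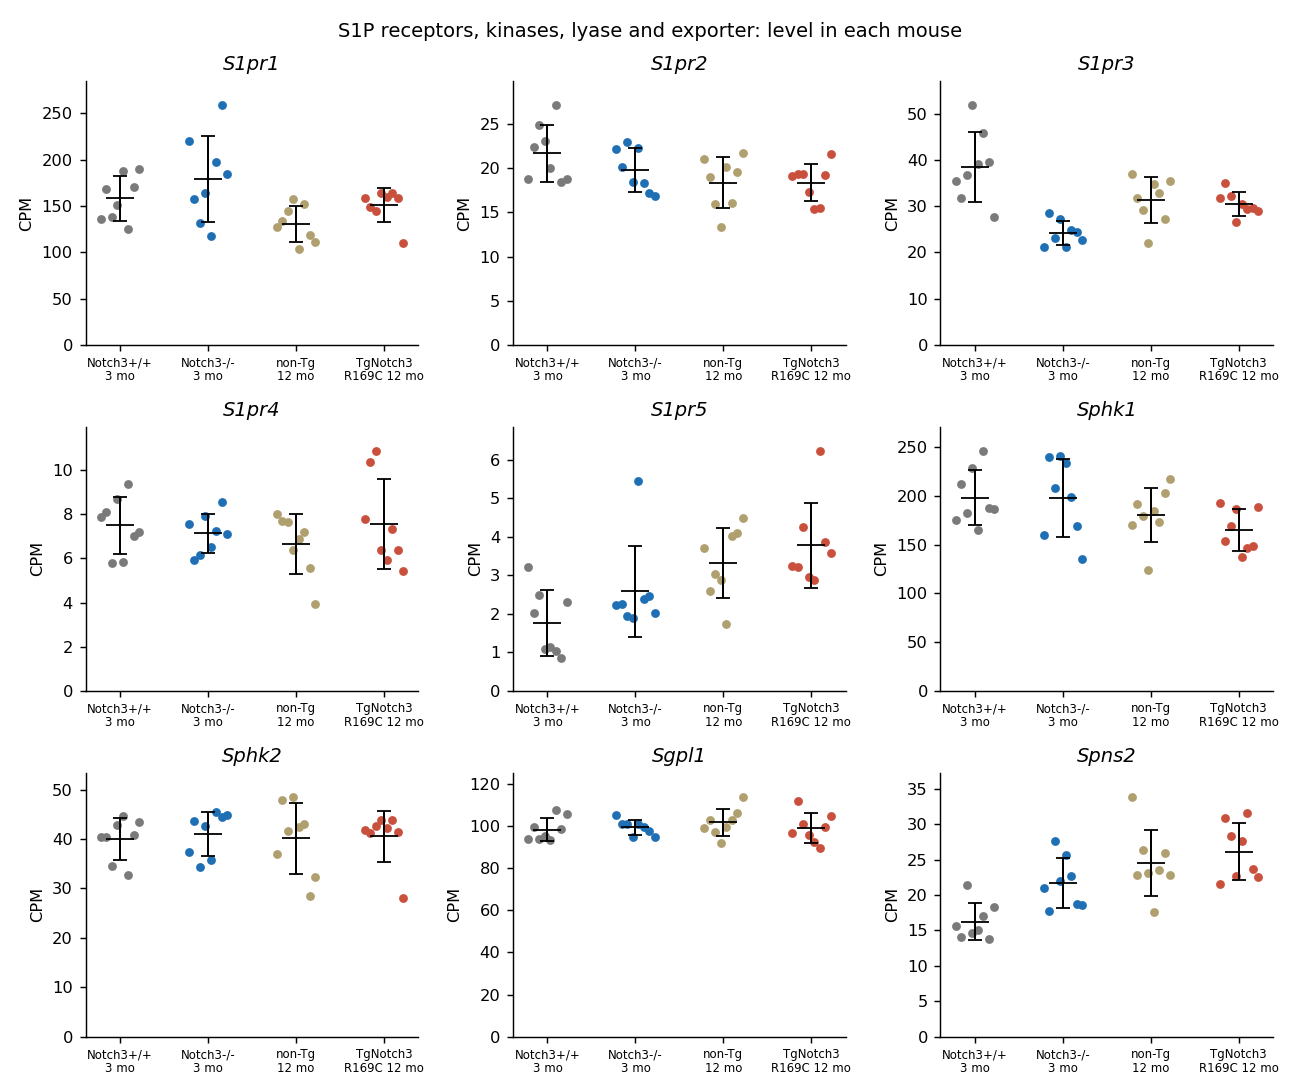
CPM of each gene in each of the 32 mice, by group (points, 1 per mouse; bars, mean ± SD; n = 8). S1pr3 is lowest in Notch3-/- arteries (21.2 to 28.5 CPM) and Spns2 is lowest in Notch3+/+ arteries (13.8 to 21.4 CPM).

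The first comparison asked which of these genes changed when *Notch3* was lost. *S1pr3* was the only one of the 9 called (adjusted p below 0.05), against 0.649% of the 17714 genes tested and 0.452% called lower. At an unadjusted p below 0.05 stood 2 of the 9 and 7.69% of all genes, and 0 of the 9 had groups that did not overlap, against 0.339% of all genes. The lowest, median, and highest *S1pr3* levels were 27.6, 37.9, and 51.8 CPM in the 8 *Notch3+/+* mice and 21.2, 23.8, and 28.5 CPM in the 8 *Notch3-/-* mice. The groups met only at their edges, where the lowest *Notch3+/+* mouse lay below the highest *Notch3-/-* mouse. *S1pr3* fell to 0.626 of the control level (95% CI 0.534 to 0.734), a change of −0.68 on the log2 scale (SE 0.11, edgeR adjusted p = 0.00422). The call held in each of the 16 fits that left out 1 mouse and without the choroid plexus–rich library (−0.66, adjusted p = 0.0120). The study had already named *S1pr3* among its *Notch3* target genes, so its choice here was not independent of this direction.

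Smooth muscle markers moved with *S1pr3* in these mice. Of 8 markers, 5 fell, among them *Myh11* (log2 fold change −1.04) and *Acta2* (−0.63), which encode the contractile myosin heavy chain and actin. *Des*, the muscle intermediate filament desmin, had the only higher value of the 8 (0.28, adjusted p = 0.296). The summed level of the list ranged from 1425 to 2183 CPM in *Notch3-/-* and from 2082 to 3680 CPM in *Notch3+/+* arteries. In bulk tissue, fewer smooth muscle cells and less RNA per cell cannot be told apart. Relative to the mean of these markers, *S1pr3* lay at −2.14 ± 0.29 in *Notch3-/-* and −2.01 ± 0.14 in *Notch3+/+* arteries on the log2 scale, a difference of −0.13 that did not pass the test (two-sided exact permutation p = 0.298, adjusted p = 0.447 over 9 such tests). With the median of the markers in place of their mean, the difference was −0.27 and passed (adjusted p = 0.0392). With the marker list as a covariate in the fit, the log2 fold change of *S1pr3* was −0.38 and not called (adjusted p = 0.608). Since the list itself was lower in *Notch3-/-* arteries, that fit cannot fully separate list from genotype. Fewer genes of the whole table were called in it as well, though 1323 had an unadjusted edgeR p below 0.05, against 1363 without the list.

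The mix of receptors was computed from the same levels, so the *S1pr3* share is not independent of the fall given above. A fall of any receptor also raises the shares of the others. *S1pr3* made up 13.0% ± 3.12 of the summed receptor level (CPM per kb, 5 receptors) in *Notch3+/+* and 7.96% ± 1.76 in *Notch3-/-* arteries. All 8 *Notch3-/-* mice lay below the *Notch3+/+* mean, the ranges overlapped, and the difference of −5.06 percentage points passed the test (exact permutation p = 0.00155, adjusted p = 0.0175 over 15 tests). The share of *S1pr1* was 82.4% ± 3.98 against 77.0% ± 4.67, a difference that did not pass (exact permutation p = 0.0269, adjusted p = 0.134) but passed without *Notch3-/-* replicate 5 (6.37 percentage points, adjusted p = 0.0474).

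**Figure D2:**
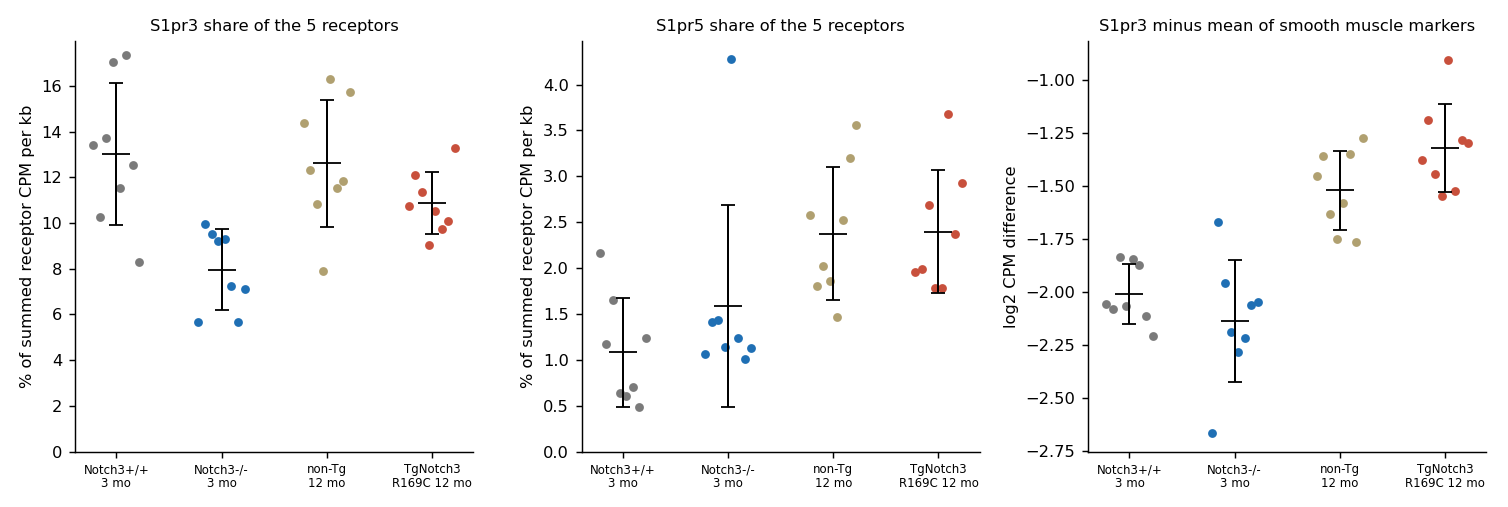
Left and middle, the percent of the summed level of 5 S1P receptors (CPM per kb of exon) held by S1pr3 and by S1pr5 in each mouse; right, log2 CPM of S1pr3 minus the mean log2 CPM of 8 smooth muscle markers (points, mice; bars, mean ± SD; n = 8). The S1pr3 share is lowest in Notch3-/- arteries (7.96% ± 1.76), and S1pr3 relative to smooth muscle markers lies at −1.52 ± 0.19 in non-Tg and −1.32 ± 0.21 in TgNotch3R169C arteries, above both 3-month means.

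None of the other 8 genes was called in *Notch3-/-* arteries. *Spns2* came nearest: its lowest, median, and highest levels were 13.8, 15.3, and 21.4 CPM in *Notch3+/+* and 17.7, 21.5, and 27.6 CPM in *Notch3-/-* mice. The ranges overlapped, and the log2 fold change of 0.41 (95% CI 0.18 to 0.64) did not pass over all genes (adjusted p = 0.117). It passed without *Notch3+/+* replicate 3 (0.48, adjusted p = 0.0314) and with DESeq2 (0.41, adjusted p = 0.0194). *S1pr5* had a log2 fold change of 0.54 with a wide interval (−0.09 to 1.16, adjusted p = 0.744), and without *Notch3-/-* replicate 5, whose *S1pr5* level was 5.46 CPM, it was 0.29. Oligodendrocyte markers had higher values in 8 of 8 genes there (median 0.38), with 0 called by edgeR and 1 at an unadjusted p below 0.05. The interval of *S1pr1*, the main receptor, ran from −0.13 to 0.47. *Sphk1* (95% CI −0.26 to 0.24), *Sphk2* (−0.13 to 0.19), and *Sgpl1* (−0.07 to 0.08) had the log2 fold changes nearest to 0, and *S1pr2* and *S1pr4* had values of −0.14 and −0.08.

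The second comparison asked the same of the CADASIL model. In Tg*Notch3R169C* against non-Tg arteries 0 of the 9 genes was called by edgeR, where 0.113% of 17731 genes were. DESeq2 also called 0. At an unadjusted p below 0.05 stood 1 of the 9 and 7.27% of all genes, and groups did not overlap for 0 of the 9 and 0.124% of all genes. *S1pr3* ranged from 26.6 to 35.0 CPM (median 30.0) in Tg*Notch3R169C* and from 21.9 to 36.9 CPM (median 32.3) in non-Tg mice. The transgenic values lay inside the control range, and the log2 fold change was −0.03 (95% CI −0.23 to 0.16). *S1pr1* was the gene with the unadjusted p below 0.05: its log2 fold change was 0.21 (95% CI 0.01 to 0.41, adjusted p = 0.679), with 109.8 to 164.5 CPM in Tg*Notch3R169C* and 103.2 to 157.7 CPM in non-Tg mice. *Spns2* had a log2 fold change of 0.09 (−0.15 to 0.34), *S1pr4* of 0.18 (−0.17 to 0.53), and *S1pr5* of 0.19 (−0.22 to 0.61). Relative to the mean of the oligodendrocyte markers, whose values were lower in 7 of 8 genes (median −0.11), *S1pr5* lay at −4.54 ± 0.13 in Tg*Notch3R169C* and −4.88 ± 0.31 in non-Tg arteries on the log2 scale. All 8 Tg*Notch3R169C* mice lay above the non-Tg mean, the ranges overlapped, and the difference of 0.34 did not pass after adjustment (exact permutation p = 0.0120, adjusted p = 0.0538). It passed without non-Tg replicate 6, 7, or 8 (0.37 to 0.40, adjusted p = 0.00979 to 0.0420). Among the metabolic enzymes the values were −0.13 for *Sphk1*, 0.02 for *Sphk2*, and −0.04 for *Sgpl1*, and *S1pr2* stood at 0.00 (95% CI −0.21 to 0.21). Smooth muscle markers had lower values in Tg*Notch3R169C* arteries for 8 of 8 genes (median −0.23), with 0 called by edgeR and 3 at an unadjusted p below 0.05.

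The difference between the effects of the 2 mutants, knockout and transgene, was tested directly in 1 fit of all 32 libraries. *S1pr3* was the 1 gene of 9 called, against 0.35% of 18555 genes and 0.264% called higher. At an unadjusted p below 0.05 stood 1 of the 9 and 8.62% of all genes. Its change in Tg*Notch3R169C* minus its change in *Notch3-/-* arteries was 0.64 on the log2 scale (SE 0.15, 95% CI 0.35 to 0.94, adjusted p = 0.0368). This call was not stable: in 16 of 32 fits that left out 1 mouse the value stayed between 0.56 and 0.65 but adjusted p was 0.0506 to 0.0717. The 16 mice were *Notch3+/+* replicates 4, 5, 6, and 7, *Notch3-/-* replicates 3, 5, 6, 7, and 8, Tg*Notch3R169C* replicates 1, 2, 5, and 6, and non-Tg replicates 2, 3, and 7. Without the choroid plexus–rich libraries the difference was 0.59 and not called (adjusted p = 0.200). The 2 mutants also differed in age, which cannot be told apart from the genotype here. For *Spns2* the difference was −0.31 (95% CI −0.64 to 0.01, adjusted p = 0.605).

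**Figure D3:**
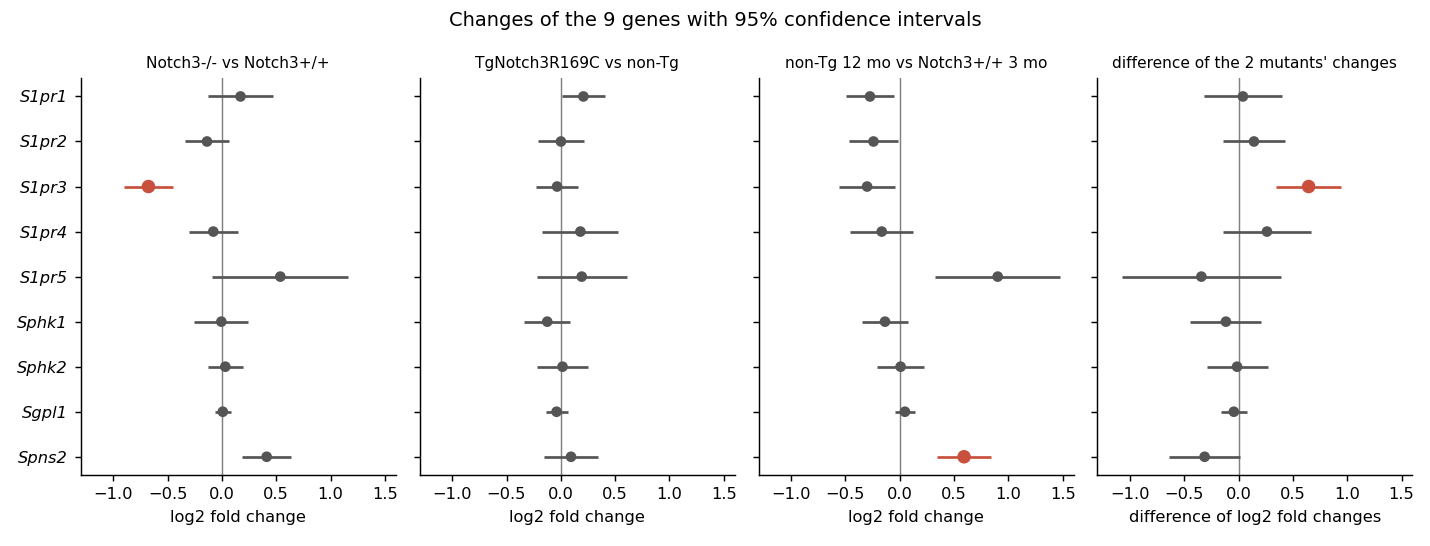
Log2 fold change of each gene (point) with its 95% confidence interval (line) in the 3 comparisons of groups, and in the right panel the TgNotch3R169C change minus the Notch3-/- change; red marks adjusted p below 0.05. S1pr3 is red in the first and last panels (−0.68 and 0.64) and Spns2 in the third (0.59).

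The control groups were compared with each other for age. The 12-month non-Tg and 3-month *Notch3+/+* mice came from different lines, so age and line cannot be told apart, and each group also served as control in a comparison above. *Spns2* was the 1 gene of 9 called, against 7.92% of 17643 genes and 3.87% called higher. At an unadjusted p below 0.05 stood 5 of the 9 and 24.2% of all genes, and groups did not overlap for 0 of the 9 and 1.29% of all genes. Its lowest, median, and highest levels were 13.8, 15.3, and 21.4 CPM in 3-month and 17.6, 23.3, and 33.9 CPM in 12-month mice. The ranges overlapped at their edges. *Spns2* was 1.51 times the 3-month level (95% CI 1.27 to 1.79), or 0.59 higher on the log2 scale (SE 0.12, edgeR adjusted p = 0.00658), and the call held in each of 16 fits that left out 1 mouse and without the choroid plexus–rich libraries (0.75, adjusted p = 0.0144). With oligodendrocyte markers or smooth muscle markers as a covariate it was 0.45 and not called (adjusted p = 0.286 and 0.563). The summed smooth muscle list did not overlap between these groups (1146 to 1755 CPM at 12 months, 2082 to 3680 CPM at 3 months). A fit with that list therefore cannot separate list from group. With the oligodendrocyte and smooth muscle lists, 2155 and 1769 of all genes had an unadjusted edgeR p below 0.05, against 4275 with neither. Neuron markers had higher values at 12 months in 6 of 8 genes (median 0.26), with 0 called by edgeR and 0 at an unadjusted p below 0.05.

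*S1pr5* was near the threshold in the same comparison. It ranged from 0.863 to 3.21 CPM (median 1.59) in 3-month and from 1.75 to 4.48 CPM (median 3.37) in 12-month mice, which overlapped widely. The log2 fold change was 0.90 (95% CI 0.33 to 1.47, adjusted p = 0.0507), and it passed without *Notch3+/+* replicate 1 (1.08, adjusted p = 0.0214), without *Notch3+/+* replicate 3 (0.99, adjusted p = 0.0393), without non-Tg replicate 5 (0.99, adjusted p = 0.0377), and with DESeq2 (0.90, adjusted p = 0.0128). As a share of the receptor level *S1pr5* was 2.37% ± 0.727 at 12 months and 1.08% ± 0.592 at 3 months, and 8 of 8 older mice lay above the younger mean (exact permutation p = 0.00233, adjusted p = 0.0175). *S1pr5* rested on few reads, 25 to 242 counts per library.

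Oligodendrocyte markers moved with *S1pr5*. Of 8 markers, 4 rose at 12 months (median log2 fold change of the list 0.70), and relative to the mean of that list the *S1pr5* difference was 0.25 (exact permutation p = 0.127, adjusted p = 0.285). *S1pr1*, *S1pr2*, and *S1pr3* had lower values at 12 months, with log2 fold changes of −0.27, −0.24, and −0.30 that did not pass over all genes (adjusted p = 0.113, 0.170, and 0.141). Smooth muscle markers fell further, in 8 of 8 genes with a median of −0.88. *S1pr3* relative to that list was therefore higher at 12 months, at −1.52 ± 0.19 against −2.01 ± 0.14 on the log2 scale, with no overlap of the 8 and 8 mice (exact permutation p = 0.0001554, the smallest this design allows, adjusted p = 0.00140). The kinases and the lyase had values of −0.14 (*Sphk1*), 0.01 (*Sphk2*), and 0.05 (*Sgpl1*), and *S1pr4* of −0.17.

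The rest of the pathway was read from a list of 71 genes for S1P transport, breakdown, ceramide synthesis and turnover, and receptor signalling, of which 67 or 68 were tested. In *Notch3-/-* arteries 0 of 67 were called by edgeR, DESeq2 called 1, and 5 had an unadjusted p below 0.05, where 0.649% of all genes were called and 7.69% had such a p. The median log2 fold change was −0.01, against 0.00 over all genes. The smallest p belonged to *Ppp1r12a*, the myosin phosphatase target subunit (−0.33, adjusted p = 0.0526), followed by *Rgs4*, a regulator of G protein signalling (−0.39, adjusted p = 0.337), and the ceramidase *Acer2* (0.28, adjusted p = 0.473). In Tg*Notch3R169C* arteries 1 of 68 was called, against 0.113% of all genes: *Abca1*, a cholesterol exporter that has also been linked to S1P release, rose from 174.3 to 214.2 CPM (0.30, adjusted p = 0.0189). The call was lost without Tg*Notch3R169C* replicate 1, Tg*Notch3R169C* replicate 7, or non-Tg replicate 3, without the choroid plexus–rich libraries, and with each of the 5 marker lists tried as covariates. Between 12 and 3 months 9 of 67 were called (13.4%, against 7.92% of all genes), 4 higher and 5 lower. The exporters *Mfsd2b* (0.40) and *Abcc1* (0.32) rose, as did the serine palmitoyltransferase subunit *Sptssb* (0.46) and the neutral ceramidase *Asah2* (0.23), whereas the transporter *Abcg2* fell (−0.28). The other 4 that fell act after the receptors: *Ppp1r12a* (−0.46), *Rgs4* (−0.55), the kinase *Rock1* (−0.39), and the G protein subunit *Gnaq* (−0.15). Smooth muscle markers fell in the same comparison, as given above, and their part in these calls was not tested beyond the fits that follow. Without the choroid plexus–rich libraries 2 of the 67 were called, and with the smooth muscle, oligodendrocyte, endothelial, or choroid plexus list as a covariate 0, 0, 1, and 2 were. Calls over all genes also fell in each of these fits, so the loss was not particular to the pathway. In the same order, 17, 6, 13, 12, and 14 pathway genes had an unadjusted edgeR p below 0.05, against 19 in the main fit. Over all genes 3623, 1769, 2155, 2526, and 3085 did, against 4275. Between the changes of the 2 mutants, *Abca1* was the 1 gene of 68 called (0.31, adjusted p = 0.0158), against 0.35% of all genes. With the oligodendrocyte list as a covariate or without a filter on low counts, 0 were called.

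Variation between mice of the same group was examined with the group means removed, over 99 relations of the 9 genes with 11 marker lists. These correlations share the library and its scaling. *S1pr5* followed the oligodendrocyte list closely, with r = 0.865 and rho = 0.820 (permutation p = 1e-05, the smallest these permutations can give, adjusted p = 0.00099 for both), and r was 0.823 without the 2 libraries farthest from the median. *Spns2* followed the neuron list by r (0.586, permutation p = 0.00085, adjusted p = 0.0421, and 0.426 without the 2 farthest) but not by rho (0.540, permutation p = 0.00245, adjusted p = 0.0808). *Sgpl1* followed the macrophage list (r = 0.548, rho = 0.587, permutation p = 0.00185 and 0.00088, adjusted p = 0.0458 and 0.0436, and r = 0.499 without the 2 farthest). *Sphk1* followed the same list by r (0.545, permutation p = 0.00178, adjusted p = 0.0458, and 0.411 without the 2 farthest) but not by rho (0.471, permutation p = 0.0104, adjusted p = 0.171). *S1pr3* and the smooth muscle list gave r = 0.501 and rho = 0.452, which did not pass (permutation p = 0.00666 and 0.0150, adjusted p = 0.0902 and 0.181), and *S1pr1* and the endothelial list gave r = 0.0309. No value is given for choroid plexus markers, since the libraries fell into separate clusters.

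**Figure D4:**
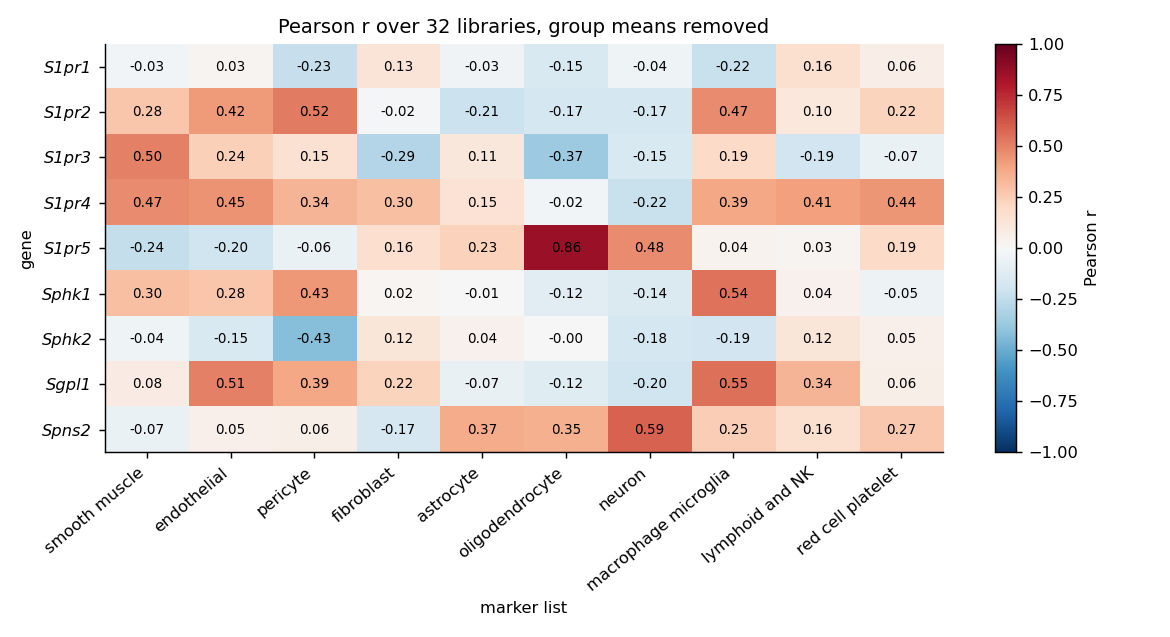
Pearson r of log2 CPM of each gene (rows) with the mean log2 CPM of each list of 8 markers (columns) over 32 libraries after the group means were removed (red positive, blue negative). S1pr5 and the oligodendrocyte list stand out at 0.865.

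The genes that varied most like each receptor or enzyme, among 15345 compared in the same way, differed from one member to the next. For *S1pr1* they were *Klf2*, *Rhob*, and *Klf4* (r = 0.853, 0.852, and 0.850). For *S1pr2* they were *Lefty1*, *Eva1b*, and *Sertad2* (0.895, 0.883, and 0.882), and for *S1pr3* they included *Cchcr1* and *Tpm2* (0.769 and 0.713), the latter a muscle tropomyosin. *S1pr4* was most like *Pim1*, *Tinagl1*, and *Esam* (0.791, 0.762, and 0.750). *S1pr5* was most like the myelin genes *Mag* and *Hapln2* and *Prr18* (0.887, 0.861, and 0.859). *Sphk1* varied with *Slc22a6*, *Tbx18*, and *Bmp7* (0.938, 0.900, and 0.890), *Sphk2* with the clock gene *Arntl*, *Pou2f3*, and *Leo1* (0.910, 0.880, and 0.874), *Sgpl1* with *Pald1*, *Colgalt1*, and *Epb41l2* (0.768, 0.762, and 0.753), and *Spns2* with genes that included *Nkain2* and *Vash1* (0.682 and 0.677).

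*Sphk2* needed a separate look because 912 bases of its exons (21.9%) overlap *Dbp* and *Rpl18* on the opposite strand. *Dbp*, a clock output gene, was looked at after the values were seen, and the p values below do not cover that choice. *Sphk2* and *Dbp* ran in opposite directions over the 32 libraries (r = −0.874, rho = −0.800, permutation p = 1e-05 for both, adjusted p = 4.5e-05 over 18 relations with *Dbp* and *Arntl*, and r = −0.829 without the 2 farthest). *Sphk2* was lowest in Tg*Notch3R169C* replicate 8 (28.1 CPM) and non-Tg replicate 7 (28.4 CPM), where *Dbp* was at 355.5 and 354.7 CPM against a median of 113.4 CPM over all mice. Whether counting used strand is not stated, and the time of day of each dissection is not in the labels used here, so neither was tested. *Spns2* shares 131 exon bases (3.21%) with *Mybbp1a* on the opposite strand, and *S1pr3*, *S1pr5*, and *Sphk1* share 45, 51, and 192 bases with opposite-strand genes whose levels were at most 1.29 CPM.

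**Figure D5:**
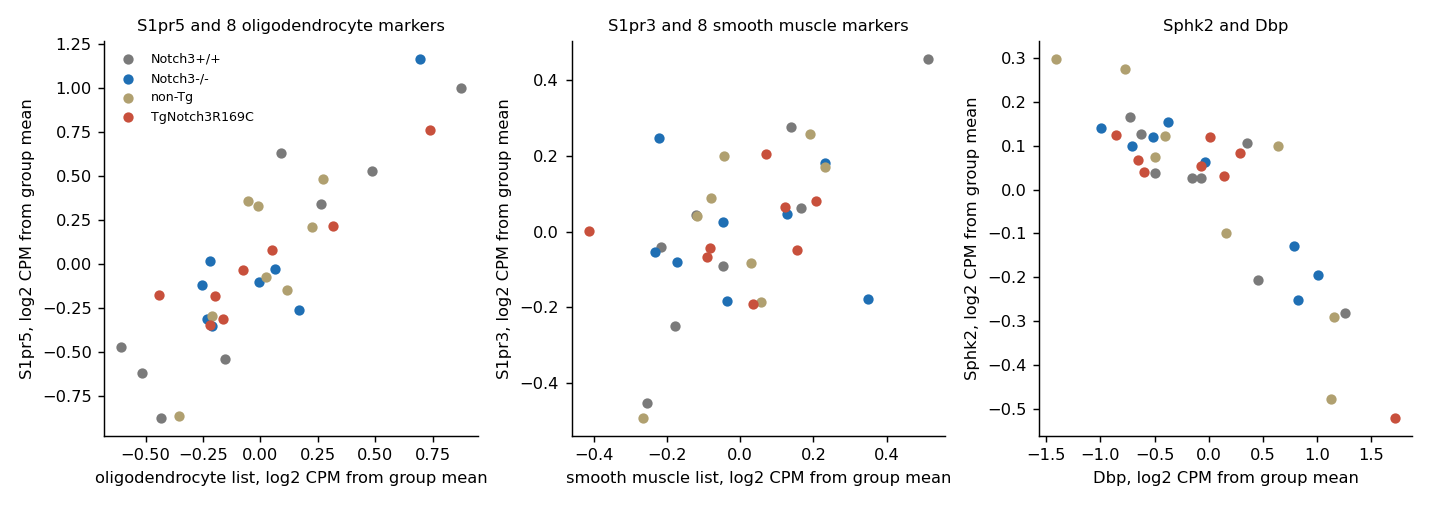
Log2 CPM in each of the 32 mice as the distance from the mean of its group: S1pr5 against oligodendrocyte markers (left), S1pr3 against smooth muscle markers (middle), and Sphk2 against Dbp (right), coloured by group. Points rise together on the left (r = 0.865) and run in opposite directions on the right (r = −0.874).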

How the data were processed

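RNA sequencing of brain arteries (poly(A) selection, stranded kit) gave raw counts per Ensembl gene, deposited by the authors as 1 table with 1 column per library. The submitters' processing notes name bcl2fastq 2.20.0.422, cutadapt 1.10, Bowtie2 2.2.8, STAR 2.5.3a, HTSeq 0.6.1p1, and mm39. The counting strand and annotation release are not given in the sources used here. Groups came from the genotype and age labels.

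Each comparison was fitted on the whole table with edgeR 4.0.16 (TMM, filterByExpr, quasi-likelihood F test) in R 4.3.3, with Benjamini-Hochberg adjustment over all genes tested and a threshold of 0.05, and all 9 members passed the filter. Log2 CPM used a prior count of 0.5. Gene lengths came from a GRCm38 annotation. Shares and marker-relative levels were compared by exact permutation of 8 against 8 mice (12870 divisions), and correlations by 100000 permutations within groups. Alternatives included DESeq2 1.42.0, other normalization and filters, leaving out each mouse, and marker covariates. The oligodendrocyte, endothelial, and astrocyte covariates, the exclusion of choroid plexus–rich libraries, and the relations with *Dbp* and *Arntl* were chosen after seeing the data. The members and gene lists were chosen with earlier results of these data known. Named genes are all members, *Notch3*, pathway genes called in any test or, where none was, the 3 with the smallest p, example markers, and the 3 genes most correlated with each member, of which some are not reported here. *Dbp* and *Mybbp1a* were added for their overlap. The fitting step was tested on simulated data. Replicates within groups differed by more than sampling noise, so no library was a duplicate.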

Additional observations from a re-analysis of the deposited data

Results flagged for a closer look

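In 36 sets of 8 mice (9 genes in 4 groups), 4 single mice lay apart from the other 7 of their group by more than Dixon's 95% limit for the share of the group's range, where chance gives about 1.8. *S1pr5* was highest in *Notch3-/-* replicate 5 at 5.46 CPM, with the next mouse at 2.46 CPM (gap 0.843 of the range). *S1pr5* was also highest in Tg*Notch3R169C* replicate 6 at 6.24 CPM, with the next at 4.26 CPM (0.588). *Sphk2* was lowest in Tg*Notch3R169C* replicate 8 at 28.1 CPM, with the next at 41.1 CPM (0.829), and *S1pr1* was lowest in the same mouse at 109.8 CPM, with the next at 144.9 CPM (0.642). In both of the *S1pr5* cases the same mouse had the highest mean level of oligodendrocyte markers in its group. Tg*Notch3R169C* replicate 8 was also 1 of the choroid plexus–rich libraries, and its *Dbp* level was 355.5 CPM, against a median of 113.4 CPM over all mice. Tg*Notch3R169C* replicate 5, also rich in choroid plexus markers, had *Sphk2* at 42.2 CPM and *S1pr1* at 159.2 CPM. The part of the marker levels or of *Dbp* in these values was not tested.

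*S1pr3* is listed because its change differed between the mutants in the test of the difference itself, by 0.64 on the log2 scale (adjusted p = 0.0368 by edgeR). The call was lost in 16 of 32 fits that left out 1 mouse and without the choroid plexus–rich libraries. The mutants also differed in age, which cannot be told apart from genotype here.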

How the results depend on the processing

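Under the RLE scaling the fold changes and the levels relative to marker lists kept their direction and their side of the threshold. For the 99 correlations with marker lists only r was computed under this scaling, with no p. It moved by at most 0.0462. The replicate numbers gave no clear pairing of the mice (4, 4, and 3 of 8 same-numbered pairs correlated above 0.1, and 3, 1, and 2 mice correlated best with their own number). The study describes its wild-type mice as littermates of the mutants, but the labels do not say which mice shared a litter. This check therefore cannot exclude pairing. With the numbers as a replicate block, genes called became 6 for the transgene and 715 for age (20 and 1398 without), members called 2 in *Notch3-/-* (*Spns2* 0.41, adjusted p = 0.0417) and 0 for the difference between mutants (*S1pr3* 0.64, adjusted p = 0.0981), pathway genes called 0 for the transgene, and *Sphk2* with age −0.0040.

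In the order *Notch3-/-*, transgene, age, and difference between mutants, edgeR called 115, 20, 1398, and 65 genes and DESeq2 280, 74, 2365, and 153. DESeq2 called 2 members in *Notch3-/-* and 2 with age, and 1 and 2 pathway genes in *Notch3-/-* and for the difference. One fit of all 4 groups called 174 genes, 1 pathway gene in *Notch3-/-*, and 2 members with age, and a minimum of 10 counts in every library also gave 2. Without a filter on low counts, *S1pr3* for the difference was 0.63 (adjusted p = 0.0632; 0 members and 0 pathway genes called), *Sphk1* in *Notch3-/-* 0.0043, and *Sphk2* with age −0.0048.

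The smooth muscle list as covariate left 23 genes called in *Notch3-/-* and 0 with age by edgeR (1769 had an unadjusted p below 0.05), members called 0, 0, and 0 in *Notch3-/-*, age, and the difference, and pathway genes 0 for the transgene and age. *S1pr3* was then −0.38 in *Notch3-/-*, 0.48 for the difference, 0.46 with age, and 0.072 for the transgene. In *Notch3-/-* *S1pr4* was 0.20, *S1pr5* −0.0080, and *Sphk1* 0.12. With age *S1pr2* was 0.063, *S1pr4* 0.22, *S1pr5* −0.15, *Sphk1* 0.26, *Sphk2* −0.13, and *Spns2* 0.45. *Sphk2* was 0.0048 for the difference and −0.016 for the transgene. This list itself differed between the groups.

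The oligodendrocyte list left 55, 11, and 31 genes in the first 3 comparisons, 0 members with age and for the difference, and 0 pathway genes for the transgene, age, and the difference. *Spns2* with age was 0.45. For the difference *S1pr3* was 0.53, *S1pr1* −0.016, and *S1pr5* 0.24. *S1pr2* was −0.013 for the transgene and *Sphk1* 0.0066 in *Notch3-/-*. The endothelial list left 161 genes, 0 members (*Spns2* 0.61, adjusted p = 0.0589), and 1 pathway gene with age, and 1 and 0 pathway genes in *Notch3-/-* and for the transgene. *S1pr2* was −0.092 for the transgene, *Sgpl1* −0.011 in *Notch3-/-*, and *Sphk1* 0.057 and *Sphk2* −0.11 with age. The astrocyte list left 6 genes and 0 pathway genes for the transgene, with *Sphk2* at −0.015 and *Spns2* at −0.031.

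The choroid plexus list left 11 and 227 genes for the transgene and age, pathway genes 1, 0, and 2, and 0 members for the difference (*S1pr3* 0.62, adjusted p = 0.0620). *S1pr2* was −0.036 for the transgene, *Sphk1* 0.029 and *Sphk2* −0.24 with age, *Sphk1* 0.0081 in *Notch3-/-*, and *Sphk2* 0.053 for the difference. Leaving out the libraries rich in these markers left 2, 402, and 39 genes for the transgene, age, and the difference, 0 and 2 pathway genes for the transgene and age, and 0 members for the difference (*S1pr3* 0.59). *S1pr2* was −0.10 and *Spns2* −0.052 for the transgene, *Sphk1* 0.062 in *Notch3-/-*, and *Sphk2* −0.20 with age and 0.26 for the difference. The cause of these shifts was not tested. *S1pr3* in *Notch3-/-* was called under every alternative but the smooth muscle covariate, and *Spns2* with age under every one but the smooth muscle, oligodendrocyte, and endothelial covariates. Where edgeR called 0 members in these fits, 0 to 4 had an unadjusted p below 0.05, and where it called 0 pathway genes for the transgene, age, or the difference, 3 to 13 had; DESeq2 was not run with covariates. With the median of the marker list, *S1pr3* relative to smooth muscle in *Notch3-/-* was −0.27.

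Leaving out 1 mouse, genes called ranged from 78 to 141, 11 to 26, 895 to 1621, and 53 to 94 in the same order, members called from 1 to 2, 0 to 0, 1 to 2, and 0 to 1, and pathway genes from 0 to 1, 0 to 1, 6 to 10, and 1 to 2. *S1pr3* ranged from −0.73 to −0.59 in *Notch3-/-* and from 0.56 to 0.70 for the difference, and *Spns2* with age from 0.51 to 0.66. Values near 0 changed sign among these fits: *S1pr1* from −0.030 to 0.13 for the difference, *S1pr2* from −0.054 to 0.043 for the transgene, *S1pr3* from −0.095 to 0.0062 for the transgene, *Sgpl1* from −0.00018 to 0.030 in *Notch3-/-*, *Sphk1* from −0.044 to 0.062 in *Notch3-/-*, *Sphk2* from −0.0027 to 0.071 in *Notch3-/-*, *Sphk2* from −0.061 to 0.042 for the difference, *Sphk2* from −0.043 to 0.077 for the transgene, and *Sphk2* from −0.033 to 0.066 with age. Shares of the receptor level, in percentage points, did so too: *S1pr2* from −0.12 to 0.29 with age, *S1pr3* from −1.09 to 0.26 with age, *S1pr4* from −0.27 to 0.21 for the transgene, *S1pr4* from −0.012 to 0.48 with age, and *S1pr5* from −0.16 to 0.19 for the transgene. Depth limits *S1pr5* most, at 25 to 242 counts per library.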

Other observations

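Other members beside *Sphk2* also varied with the clock genes within groups, a pattern looked for after the *Sphk2* values were seen. Over 18 relations of the 9 genes with *Arntl* and *Dbp*, 10 passed after adjustment of the permutation p of r. *S1pr1*, *S1pr2*, *Sphk1*, *Sphk2*, and *Sgpl1* each passed with both clock genes, with opposite signs of r, so these are not separate results. The share of all genes that vary with *Arntl* or *Dbp* was not computed, so this count cannot be called particular to the 9 genes. The *Sphk2* values led to the choice of these clock genes, and no p given here covers that choice. *S1pr2* was higher where *Dbp* was higher (r = 0.833, rho = 0.863, permutation p = 1e-05, adjusted p = 4.5e-05, and r = 0.806 without the 2 farthest libraries) and was lower where *Arntl* was higher (r = −0.784, rho = −0.807, permutation p = 1e-05, adjusted p = 4.5e-05, and r = −0.768 without the 2 farthest). *S1pr1* ran the other way, with r = −0.698 and rho = −0.649 against *Dbp* (permutation p = 8e-05 and 0.00031, adjusted p = 0.000288 and 0.00112, and r = −0.635 without the 2 farthest). *Sphk1* and *Sgpl1* had r = 0.594 and 0.585 with *Dbp* (permutation p = 0.00066 and 0.00098, adjusted p = 0.0017 and 0.00196), rho of 0.566 and 0.542 (permutation p = 0.00139 and 0.0023, adjusted p = 0.00357 and 0.00517), and r of 0.516 and 0.504 without the 2 farthest. *S1pr3*, *S1pr4*, *S1pr5*, and *Spns2* did not pass with either gene, the largest r of these 8 relations being 0.326 (*S1pr4* with *Arntl*, rho = 0.167, permutation p = 0.0897 and 0.356, adjusted p = 0.147 and 0.492).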
